A study of Homo sapiens with 17 samples.

Results

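H3K4me1 was compared between H1 cells carrying shHNRNPU#2 and H1 cells carrying shLUC. H1 is an established human pluripotent stem cell line, and it was kept in mTeSR1 medium on Matrigel. Both groups received a packaged shRNA virus and were then selected with puromycin, so transduction and selection were common to both. shHNRNPU#2 targets HNRNPU and shLUC targets luciferase, which these cells do not carry, so shLUC served as the control. The comparison used 4 of the 17 libraries of the series, 2 per group, chosen by the antibody and shRNA in the names of the deposited lists. The labels do not say whether repeats came from separate cultures, so all p-values measure only the spread between these samples, which may be technical.

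H3K4me1 is monomethylation of lysine 4 on histone H3. It is placed mainly by the KMT2C and KMT2D methyltransferases and marks enhancers, both active and poised, and the flanks of promoters. H3K27ac, set by CREBBP and EP300, distinguishes the active enhancers and promoters among them. HNRNPU is an abundant nuclear RNA-binding protein, also known as scaffold attachment factor A, with roles in splicing and in the organisation of interphase chromatin. The assay was CUT&Tag, in which an antibody brings the Tn5 transposase to chromatin and the DNA beside it is cut and tagged.

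For shLUC the sample titles and the names of the deposited lists gave opposite antibodies. The 2 lists named H3K4me1 belonged to samples titled H3K27ac, and the antibody was taken from the list name. By that choice, the strong summits of a shHNRNPU#2 library and a shLUC library overlapped by 71.8% to 73.5%, beside 74.8% between the shHNRNPU#2 repeats and 73.4% between the shLUC repeats. With the 2 shLUC lists titled H3K4me1 in their place, the overlap was 21.8% to 24.3%. The antibody list in the labels names H3K27ac but not H3K4me1. Every result below uses the list names, and the same counts by title are given with the other processing choices.

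Each list gave the summit of every called peak, that is the base of highest signal, with a score that ranks it within its list. The shHNRNPU#2 lists held 174625 and 214333 summits and the shLUC lists held 179137 and 181357. Read depth was unknown. To put the lists on 1 footing, the 20000 summits with the highest scores were called strong, and the score of the last of them was 23.8 and 31.4 in shHNRNPU#2 and 23.5 and 25.8 in shLUC. The second shHNRNPU#2 library had the longest list and the highest score at that rank. Of the defining pluripotency markers, NANOG, POU5F1, LIN28B and DNMT3B had a strong summit in or within 5 kb of the gene in at least 1 library, and SOX2, SALL4 and DPPA4 had none. The summed strong summits at those 7 genes were 10 and 7 in shHNRNPU#2 and 8 and 9 in shLUC. Markers of other cell types also held strong summits, at 13 of 20 genes, with sums of 20 and 19 against 21 and 20. The marker sums therefore overlapped between the groups.

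Strong summits of the 4 lists that lay within 250 bp of each other were joined into 30937 sites on the autosomes and X. The value of a site in a library was the rank of its best summit within 250 bp, among all summits deposited for that library. Ranks were compared as a rank level, log2(100000/rank), on which a site without a summit has a level of 0, and differences are shHNRNPU#2 minus shLUC. A site was called consistent when both libraries of a group ranked it among their strong summits and each ranked it at least 2-fold better than either library of the other group. By this criterion 608 sites, or 1.97% of all sites, ranked higher after shHNRNPU#2, and 598 sites, or 1.93%, ranked lower, 3.9% in all. With summits matched within 1000 bp instead, the counts were 568 (1.84%) and 575 (1.86%). The median difference over all 30937 sites was 0.01. At the higher sites the median ranks were 6552 and 7103 in shHNRNPU#2 and 24226 and 24950 in shLUC. At the lower sites they were 26873 and 25297 in shHNRNPU#2 and 7551 and 7662 in shLUC. These medians describe the selection and carry no test.

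**Figure D1:**
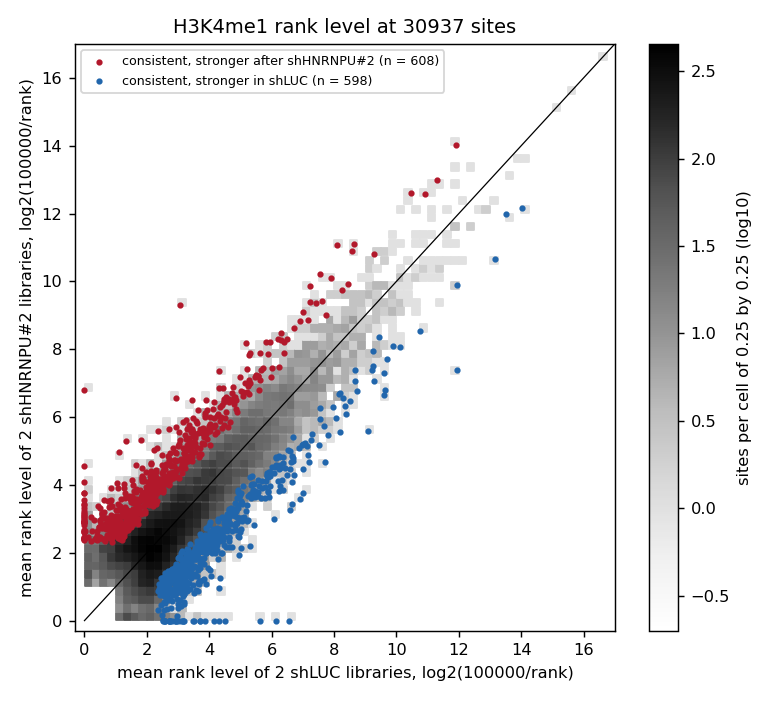
Mean H3K4me1 rank level of the 2 shLUC libraries (x axis) and of the 2 shHNRNPU#2 libraries (y axis), both as log2(100000/rank), at 30937 sites. Grey cells give the number of sites on a log10 scale, and colored points are the 608 consistent higher and 598 consistent lower sites. Most sites lie along the diagonal, and points on an axis have no summit under rank 100000 in 1 group.

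A limma fit over all sites called 38 sites higher (0.123%) and 36 lower (0.116%) after shHNRNPU#2 at an adjusted p below 0.05, and 61 of these 74 sites (0.239% of all) were also consistent. In the site fits the SE followed a trend with mean rank level, pooled over all sites. It does not give the spread of a site's own repeats, and neither does the p-value. The site ranked 1 in all 4 libraries still had an SE of 0.63. Without adjustment 2311 sites, or 7.47%, had p below 0.05. The calls rest on all 4 libraries, since no more than 2 sites per direction were called when any 1 library was left out. They also depend on how close a summit had to lie: with a match within 1000 bp, 12 sites (0.0388%) remained higher and 13 (0.042%) lower, and all 25 were among the 74. Few calls were left on log2 scores (1 higher and 0 lower), among sites in at least 2 lists (3 and 4) or among sites ranked in all 4 lists (4 and 8). Loci are therefore described below with their ranks at both distances.

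Position relative to genes differed between the sets of sites as a description. The first start that RefSeq lists for a protein-coding gene lay within 1000 bp of 31 of the 608 higher sites (5.10%), of 8 of the 598 lower sites (1.34%) and of 4.65% of all sites. Counting any listed start, alternative starts inside genes included, the numbers were 38 (6.25%), 17 (2.84%) and 6.40%. Gene bodies held 57.9% of higher and 58.0% of lower sites, beside 55.6% of all sites. Over whole lists, the share of strong summits closer than 1000 bp to an end of a protein-coding gene was 7.39% and 8.12% in shHNRNPU#2 and 7.33% and 6.90% in shLUC. Both shHNRNPU#2 libraries lay above both shLUC libraries, by 0.638 percentage points between means of 7.75% ± 0.516 and 7.11% ± 0.301 (SD, n = 2). An exact two-sided permutation test gave p = 0.33, which is the smallest p that 2 against 2 libraries allow.

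At 23 promoters a higher consistent summit, and at 10 promoters a lower one, fell inside the window from 250 bases before to 50 after a listed start of a protein-coding gene. Of these windows, 20 of the 23 higher and 4 of the 10 lower ones belonged to the first start listed for the gene, and the others to alternative starts, so most lower windows lay inside genes. The 2 windows with the largest difference in each direction are shown, since they give the sequence under summits that differed. The sequences are from RefSeq (GRCh38.p14), on the strand of the gene, with the 11 bases centred on the summit in capitals. UBE3C lies on the plus strand at chr7:157138676-157138975, ZNF254 on the plus strand at chr19:24086937-24087236, APBB1 on the minus strand at chr11:6405368-6405667 and PNMA8B on the minus strand at chr19:46495818-46496117.
UBE3C: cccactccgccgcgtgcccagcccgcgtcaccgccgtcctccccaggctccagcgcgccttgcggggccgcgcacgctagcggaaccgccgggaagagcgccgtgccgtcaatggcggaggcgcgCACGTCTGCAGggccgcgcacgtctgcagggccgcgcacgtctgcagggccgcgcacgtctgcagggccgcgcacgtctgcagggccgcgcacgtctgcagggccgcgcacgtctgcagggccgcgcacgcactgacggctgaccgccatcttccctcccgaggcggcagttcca
ZNF254: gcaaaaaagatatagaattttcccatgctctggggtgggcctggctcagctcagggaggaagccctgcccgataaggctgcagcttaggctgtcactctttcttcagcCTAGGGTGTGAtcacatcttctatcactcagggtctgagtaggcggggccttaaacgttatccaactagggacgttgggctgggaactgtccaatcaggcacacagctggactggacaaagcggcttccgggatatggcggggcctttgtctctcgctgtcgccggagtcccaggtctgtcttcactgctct
APBB1: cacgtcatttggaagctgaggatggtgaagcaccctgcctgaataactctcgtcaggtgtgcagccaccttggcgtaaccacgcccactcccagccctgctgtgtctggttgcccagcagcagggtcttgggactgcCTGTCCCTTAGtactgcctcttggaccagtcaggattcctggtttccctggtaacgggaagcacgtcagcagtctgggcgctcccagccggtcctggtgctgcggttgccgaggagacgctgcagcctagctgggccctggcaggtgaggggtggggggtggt
PNMA8B: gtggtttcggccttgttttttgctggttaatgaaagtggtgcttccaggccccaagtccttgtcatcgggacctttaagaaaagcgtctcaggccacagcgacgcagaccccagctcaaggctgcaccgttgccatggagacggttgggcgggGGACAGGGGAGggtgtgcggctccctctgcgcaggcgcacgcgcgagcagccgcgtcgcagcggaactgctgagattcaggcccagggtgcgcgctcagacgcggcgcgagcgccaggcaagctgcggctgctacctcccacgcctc

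UBE3C, a ubiquitin ligase, had ranks of 5721 and 11645 in shHNRNPU#2 and of 50764 and 32484 in shLUC (difference 2.31 ± 0.67 SE, adjusted p = 0.123). Its summit lay 120 bases before the start, and the 11 capital bases occurred 7 times in the window. ZNF254, a zinc finger protein, had ranks of 10084 and 4653 against 36375 and 27979 (2.22 ± 0.66, adjusted p = 0.151). The groups did not overlap at either promoter, as the criterion requires, but neither difference passed the adjusted threshold. In the other direction, APBB1, an adaptor that binds the amyloid precursor protein, had its summit in an alternative start window, 13586 bp into the gene from its first listed start, with ranks of 12791 and 21114 in shHNRNPU#2 and of 1772 and 5634 in shLUC (-2.38 ± 0.71, adjusted p = 0.144). PNMA8B had ranks of 19408 and 31973 against 5082 and 5989 (-2.17 ± 0.68, adjusted p = 0.186). The windows of UBE3C and PNMA8B held 48 and 27 CpG dinucleotides, and those of ZNF254 and APBB1 held 10 and 11. The median was 22 CpG over the 23 higher promoters and 10 over the 10 lower ones, beside 19 over the 1341 windows with any strong summit and 21 over all 22132 windows. For summits within 1000 bp of the first listed start, the medians were 26 CpG (21 higher windows) and 25 (4 lower windows). For summits farther away, they were 11.5 (2 higher windows) and 7.5 (6 lower windows). Whether the kind of start accounts for the gap between the directions was not tested. The promoter of SPARC, a secreted matrix glycoprotein, ranked 2513 and 2065 after shHNRNPU#2 and 11689 and 6435 in shLUC (1.93 ± 0.73, adjusted p = 0.412).

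Among the 74 called sites, the largest difference at a site with a summit in all 4 libraries was inside WASL, which encodes N-WASP, an activator of actin branching. Its site at chr7:123692697, in the gene body 56.3 kb after the first listed start, ranked 236 and 105 in shHNRNPU#2 and 14466 and 10001 in shLUC at either match distance. The difference was 6.26 ± 0.78 (SE), a 76.4-fold change in rank, with an adjusted p of 7.1e-12, and 7.2e-11 with matches within 1000 bp. The 2 shHNRNPU#1 libraries, made with another shRNA against the same gene, ranked it 433 and 445. H3K27ac summits at the same site ranked 1448 and 1924 in shHNRNPU#2 and 21203 and 31296 in shLUC. WASL was therefore far apart between the groups in both marks. All H3K4me1 comparisons with shHNRNPU#1 would share the shLUC libraries, so only its own ranks are given.

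TMEM123, a mucin-like membrane protein, showed the same order at chr11:102439056 in its gene body. H3K4me1 ranked 977 and 1154 in shHNRNPU#2, 1685 and 873 in shHNRNPU#1, and 10565 and 16208 in shLUC. The difference was 3.62 ± 0.74 (adjusted p = 0.0019, and 0.0065 with matches within 1000 bp). H3K27ac ranked 992 and 866 in shHNRNPU#2 and 5362 and 6132 in shLUC. XYLT1, which starts the sugar chains of proteoglycans, ranked 1418 and 3032 in shHNRNPU#2, 2291 and 3532 in shHNRNPU#1, and 24832 and 15565 in shLUC at chr16:17368172 (3.25 ± 0.71, adjusted p = 0.0072). No H3K27ac summit lay within 250 bp of the XYLT1 site in any of the 4 libraries. NR3C2, the mineralocorticoid receptor, ranked 5943 and 7379 against 49006 and 35028 at chr4:148097989 (2.65 ± 0.67, adjusted p = 0.037), with 5296 and 8327 in shHNRNPU#1. These 4 genes kept their calls with matches within 1000 bp.

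POLR2F, a subunit shared by the nuclear RNA polymerases, ranked 5853 and 3066 after shHNRNPU#2 at chr22:38034799 and had no summit within 250 bp in either shLUC library (4.56 ± 0.69, adjusted p = 2.1e-07). Summits of rank 23350 and 15943 did lie within 1000 bp in shLUC, so at that distance the gap narrowed. ZMIZ1, a transcriptional coactivator, ranked 12622 and 5787 at chr10:79158940 against no summit in shLUC (3.55 ± 0.84, adjusted p = 0.018), and 1 shLUC library had a summit of rank 25248 within 1000 bp. PTPN14, a phosphatase that binds the Hippo effector YAP, ranked 7565 and 7090 at chr1:214405142 against no summit (3.77 ± 0.79, adjusted p = 0.0031). Within 1000 bp of the PTPN14 site, however, the shLUC ranks were 1431 and 1834 and those of shHNRNPU#2 were 2144 and 7090, so a strong peak stood there in both groups. CCNJL, SZRD1 and GLYCTK were also named by the rule, with no shLUC summit within 250 bp, and their adjusted p lay between 0.307 and 0.395.

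**Figure D2:**
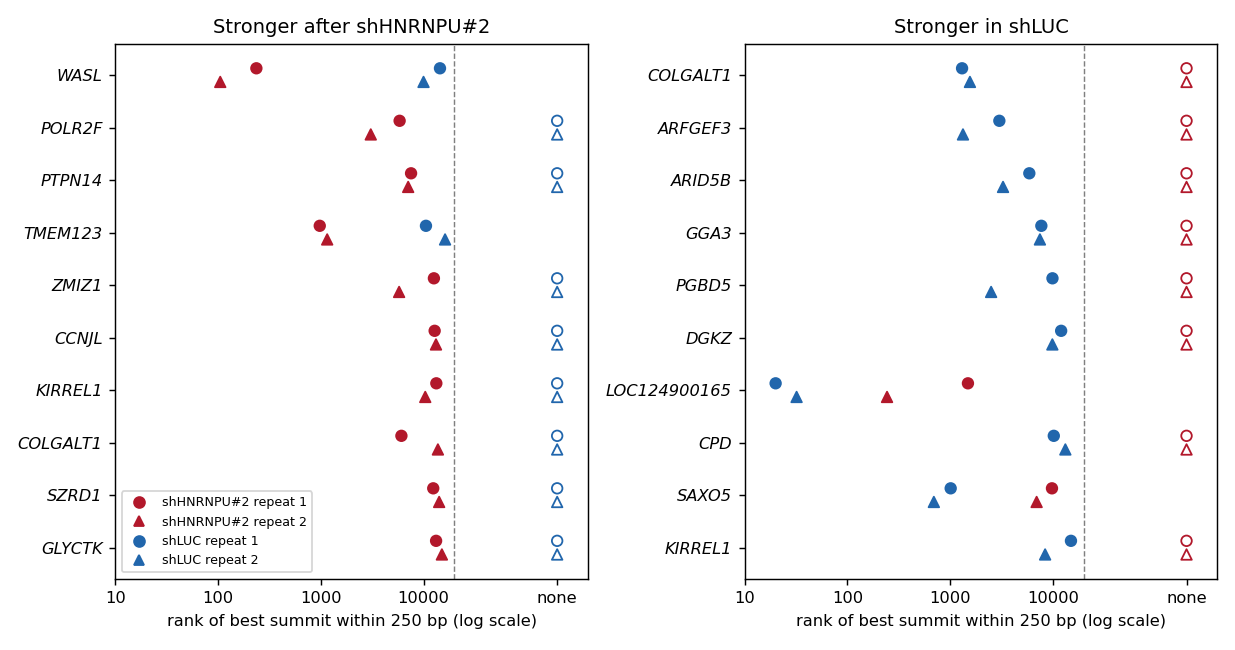
Rank of the best H3K4me1 summit within 250 bp (log scale, lower is stronger) in each of the 4 libraries at the 10 named sites that ranked higher after shHNRNPU#2 (left) and the 10 that ranked higher in shLUC (right). Open symbols at "none" mark libraries with no summit within 250 bp, and the dashed line is rank 20000. WASL, TMEM123, LOC124900165 and SAXO5 have a summit in all 4 libraries.

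Among the sites that ranked lower after shHNRNPU#2, ARID5B stood out because its summit was missing at both distances. ARID5B encodes a DNA-binding protein of the ARID family, and the site at chr10:61994593 lay in its gene body. It ranked 5897 and 3272 in shLUC, and no summit lay within 1000 bp in either shHNRNPU#2 library (-4.51 ± 0.69, adjusted p = 3.8e-07, and 3.0e-07 at 1000 bp). Neither shHNRNPU#1 library had a summit within 250 bp, and no H3K27ac summit lay there in any of the 4 H3K27ac libraries. At LOC124900165, an uncharacterised protein-coding gene, the site at chr4:4673215 was among the strongest of both shLUC lists, with ranks of 20 and 32. It ranked 1490 and 243 in shHNRNPU#2 (-4.57 ± 0.79, adjusted p = 2.6e-05) and 272 and 168 in shHNRNPU#1. The shHNRNPU#2 repeats were far apart at this site, and the pooled SE does not carry that spread. H3K27ac summits were present there in shLUC, at ranks of 13449 and 26540, and were missing in both shHNRNPU#2 libraries.

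SAXO5 ranked 9799 and 6948 in shHNRNPU#2 and 1012 and 694 in shLUC at chr19:7508049 (-3.30 ± 0.76, adjusted p = 0.013), with 1673 and 2983 in shHNRNPU#1. CREB3L1, a membrane-bound transcription factor of the CREB family, ranked 1803 and 2370 against 109 and 315 at chr11:46290870 (-3.48 ± 0.80, adjusted p = 0.013). The shHNRNPU#1 libraries ranked the CREB3L1 site 1433 and 3674, and H3K27ac ranked 33989 and 26354 in shHNRNPU#2 and 8325 and 6798 in shLUC. CCDC141 ranked 12157 and 7047 against 938 and 1064 at chr2:179020343 (-3.21 ± 0.75, adjusted p = 0.016). IQCE, a component of the ciliary Hedgehog machinery, ranked 15266 and 10097 against 1588 and 1391 at chr7:2612667 (-3.06 ± 0.74, adjusted p = 0.022). GRIN2B, an NMDA receptor subunit, ranked 14862 and 7262 against 2350 and 454 at chr12:13852055 (-3.33 ± 0.75, adjusted p = 0.01). The shLUC repeats were far apart at GRIN2B, which the pooled SE does not carry. All of these genes kept a summit in all 4 libraries and kept their calls with matches within 1000 bp. CREB3L1, CCDC141, IQCE and GRIN2B were chosen after their values were seen, as were XYLT1, NR3C2 and SPARC above and TBC1D12, MARK1, VRTN and the intergenic sites below.

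Several named losses had a strong shHNRNPU#2 summit close by. At COLGALT1, which adds galactose to collagen, the shLUC libraries ranked chr19:17579773 at 1306 and 1558, and the shHNRNPU#2 libraries ranked a summit 373 bp away, at 6092 and 13805. At ARFGEF3 the shLUC ranks were 3012 and 1333 at chr6:138183540, with no shHNRNPU#2 summit within 250 bp, but shHNRNPU#2 ranks of 1380 and 766 within 1000 bp. The same held for PGBD5, a domesticated transposase, with 9909 and 2505 in shLUC and shHNRNPU#2 ranks of 3701 and 9491 within 1000 bp. KIRREL1, an adhesion protein of the nephrin family, was named in both directions, with shHNRNPU#2 ranks of 13326 and 10396 at a site 324 bp from the one that ranked 14999 and 8402 in shLUC. GGA3, DGKZ and CPD completed the named lower sites, with adjusted p of 0.0052, 0.126 and 0.183, and both shHNRNPU#2 libraries had a summit within 1000 bp of each. Over the whole set, 13 pairs of a higher and a lower consistent site lay within 1000 bp of each other, 254 to 736 bp apart with a median of 371 bp. In all 13 pairs each site had no summit of the other group within 250 bp. The shHNRNPU#1 libraries were mixed at these pairs. At COLGALT1, KIRREL1 and DGKZ both had a summit within 250 bp of the shLUC site only. Their ranks were 6315 and 6438 at COLGALT1, 5946 and 8011 at KIRREL1, and 10899 and 5536 at DGKZ. At CSMD2 and at intergenic pairs on chromosomes 5 and 6, both had one near the shHNRNPU#2 site only. The pairs contributed 2 of the 10 named higher sites, 4 of the 10 named lower sites and 11 of the 74 called sites. The largest called differences of all, 6.79 and -6.57, formed such a pair in an intergenic stretch of chromosome 11, at bases 62553648 and 62553277. There shHNRNPU#2 ranked the first at 558 and 1454 and shLUC ranked the second at 1220 and 909, with 802 and 1294 in shHNRNPU#1 at the second.

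**Figure D3:**
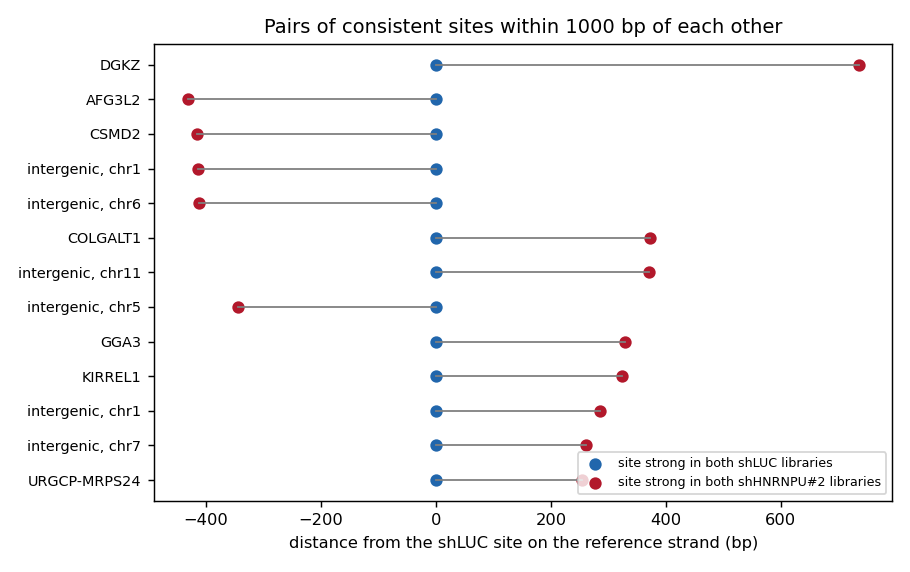
Distance in bp, along the reference strand, from the site strong in both shLUC libraries (blue, at 0) to the nearby site strong in both shHNRNPU#2 libraries (red), for the 13 pairs within 1000 bp. The distances run from 254 to 736 bp, and genes are named where the pair lay in or within 5 kb of one.

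Sites without any summit in the other group were few once the wider distance was used. Of the 608 higher sites, 34 had no summit within 250 bp in either shLUC library. Of the 568 sites that were higher with matches within 1000 bp, 4 had no shLUC summit within that distance. In shHNRNPU#2, 28 of the 598 lower sites had no summit within 250 bp. Of the 575 sites that were lower with matches within 1000 bp, 3 had none within that distance. TBC1D12, a Rab GTPase-activating protein, was 1 of the 4, with ranks of 17420 and 8545 at chr10:94409484 and no shLUC summit within 1000 bp (3.03 ± 0.95, adjusted p = 0.246 at that distance). MARK1, a microtubule affinity-regulating kinase, was in the opposite set, with 9692 and 17940 in shLUC at chr1:220542580 and no shHNRNPU#2 summit (-2.92 ± 0.99, adjusted p = 0.332 at that distance). Neither difference passed the adjusted threshold.

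Intergenic sites held some of the strongest peaks that differed. On chromosome 21, base 15222210, 156 kb from NRIP1, ranked 40 and 53 in shHNRNPU#2, 91 and 98 in shHNRNPU#1 and 336 and 396 in shLUC (2.99 ± 0.79, adjusted p = 0.088 at 1000 bp). NRIP1 encodes a corepressor of nuclear receptors. A site 16996 bp from HPCAL1, on chromosome 2 at base 10285908, ranked 3385 and 5021 against 37269 and 27287 (2.95 ± 0.66, adjusted p = 0.021 at 1000 bp). A site 14.7 kb from FOSL2, a subunit of the AP-1 transcription factor, ranked 51342 and 33778 in shHNRNPU#2 and 4948 and 4985 in shLUC (-3.07 ± 0.64, adjusted p = 0.0093 at 1000 bp). The HPCAL1 and FOSL2 sites were called and the NRIP1 site was not. The top of the lists was the same in both groups: 3 intergenic sites, on chromosomes 21 and 8, held ranks 1, 2 and 3 in all 4 libraries and also in both shHNRNPU#1 libraries. The next 2 were at NBPF1, with ranks of 12, 5, 7 and 5, and PELI1, with ranks of 11, 6, 5 and 9. The order is shHNRNPU#2 repeats and then shLUC repeats, and PELI1 is an E3 ligase of innate immune signalling. Both chromosome 21 sites also held ranks of 1 to 3 in all 4 H3K27ac libraries. Their place at the top was therefore not particular to H3K4me1. Intergenic here means more than 5 kb from any protein-coding gene.

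Strong summits were also counted over each protein-coding gene with 5 kb on either side. Of 2221 genes with enough summits to test, 211 (9.5%) had more in both shHNRNPU#2 libraries than in either shLUC library, and 202 (9.1%) had fewer. A limma fit on log2(count + 1) called 46 genes with more (2.07%) and 70 with fewer (3.15%). However, 115 of the 116 called genes had the same count in both repeats of each group, and when genes with such ties were left out of the fit no gene was called. The gene counts are therefore given as values, without reading the adjusted p.

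DLGAP1, a scaffold of the postsynaptic density, had the most summits, with 30 and 26 in shHNRNPU#2 and 22 and 23 in shLUC over 959 kb. ANKRD11, a chromatin regulator, had 17 and 17 against 12 and 12. ZMIZ1 had 11 and 15 against 9 and 7, which is the same direction as its named site. CDKAL1, a tRNA-modifying enzyme, had 12 and 13 against 6 and 9, and SH3PXD2A, a podosome scaffold, had 10 and 9 against 5 and 6. Fewer summits were counted over RBFOX1, a neuronal splicing regulator of 2474 kb, with 11 and 10 in shHNRNPU#2 and 14 and 21 in shLUC. ASTN2, which acts in neuronal migration, had 6 and 7 against 11 and 13. TENM2, a synaptic adhesion protein, had 9 and 9 against 17 and 12, CTNNA2, a neuronal catenin, had 7 and 7 against 11 and 12, and OSBPL10 had 6 and 6 against 11 and 9. In all 10 genes the groups did not overlap, as the rule that named them required.

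**Figure D4:**
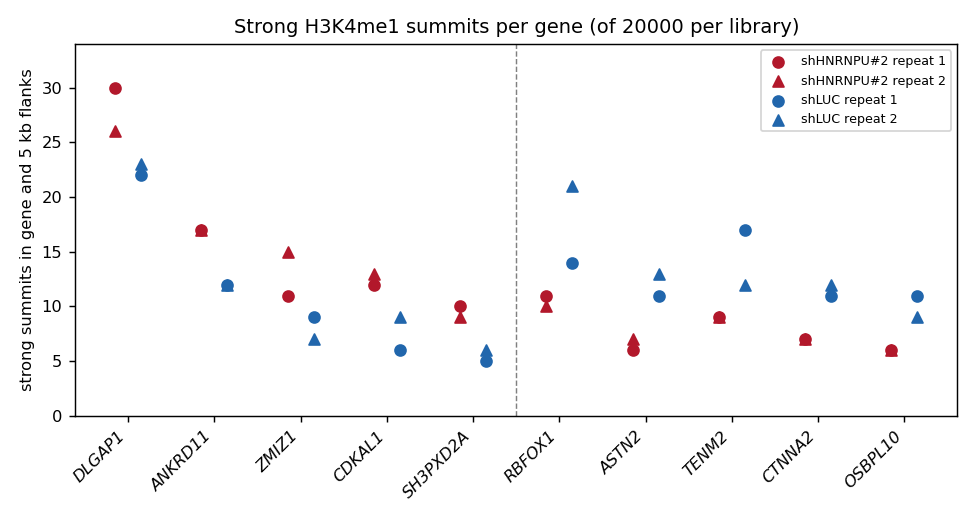
Number of strong H3K4me1 summits, of 20000 per library, in each named gene and 5 kb on either side, for the 4 libraries. Genes to the left of the dashed line had more summits after shHNRNPU#2, from 30 and 26 against 22 and 23 at DLGAP1, and those to the right had fewer.

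Genes of 500 kb or more were counted together, since RBFOX1, ASTN2, TENM2 and CTNNA2 were longer than this, as were DLGAP1 and CDKAL1 among the genes named for more summits. The 314 such genes held 1569 and 1645 strong summits in shHNRNPU#2 and 1670 and 1693 in shLUC. The groups did not overlap, and the gap between the nearest libraries was smaller than that between the shHNRNPU#2 repeats. This count was chosen after the named genes were seen. Over 5 Mb bins, no bin of 584 was called by limma, and 49 (8.39%) had an unadjusted p below 0.05. Whole chromosomes differed little, with ratios of mean summit counts between 0.972 and 1.11, the highest on X, where the libraries held 245 and 237 strong summits in shHNRNPU#2 and 222 and 213 in shLUC.

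HNRNPU itself, at chr1:244850297-244864543, had no strong H3K4me1 summit in any library. Its best deposited summits ranked 131207 and 62008 in shHNRNPU#2 and 91636 and 124432 in shLUC, so the groups overlapped. These lists measure a histone mark and do not show how far HNRNPU was depleted. The paralogs HNRNPUL1 and HNRNPUL2 held 1 site and no site, respectively.

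Genes of the pluripotent state and of the pathways that maintain it were examined as lists. Among all 9127 genes with a site, 4.65% had at least 1 consistent higher site and 4.43% at least 1 lower site, and strong summit counts did not overlap between the groups in 5.87% (more) and 5.47% (fewer). In the core and extended pluripotency list, 19 of 20 members were matched and 11 had a site. None had a higher site and 2 had a lower one. At TRIM71, a stem cell RNA-binding protein, chr3:32864664 ranked 23074 and 18149 in shHNRNPU#2 and 4020 and 7568 in shLUC (-1.89 ± 0.68, adjusted p = 0.347). At TERF1, a telomere-binding protein, the ranks were 28706 and 20752 against 9664 and 6916 (adjusted p = 0.52). DNMT3B, the de novo DNA methyltransferase of the primed state, had 4 and 4 strong summits in shHNRNPU#2 and 6 and 6 in shLUC. The summed counts of this list were 32 and 32 against 32 and 31, so the groups overlapped.

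Of 13 primed and formative genes with a site, 1 had a higher and 1 had a lower site. PODXL, a sialomucin of the pluripotent cell surface, had a site that was among the strongest of every list. At chr7:131513714 it ranked 17 and 15 in shHNRNPU#2, 23 and 43 in shHNRNPU#1 and 95 and 53 in shLUC (2.15 ± 0.76, adjusted p = 0.326). VRTN was the only listed gene with a called site. It ranked 3508 and 4773 in shHNRNPU#2 at chr14:74346501. In shLUC it ranked 9000 in the first repeat with no summit in the second (2.87 ± 0.68, adjusted p = 0.018). The site was not consistent, and in shHNRNPU#1 it ranked 4205 in the first repeat with no summit in the second. The 4 sites of VRTN had a median difference of -0.30, and its strong summits numbered 4 and 2 against 3 and 2. TCF7L1, a repressor of WNT target genes, had 12 and 11 strong summits against 9 and 10, and yet 1 of its 15 sites was lower, with ranks of 23950 and 33023 against 4443 and 5945 (-2.45 ± 0.67, adjusted p = 0.081). Of 10 naive pluripotency genes with a site, none had a consistent site in either direction, and KLF5 had 1 and 2 strong summits against 0 and 0.

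The Nodal and BMP list had 3 of 18 genes with a higher site (16.7%) and none with a lower one. These were the BMP receptor BMPR1A, the Nodal effector SMAD3 and SMAD6, an inhibitor of BMP signalling. SMAD6 held 2 higher sites. The first, at chr15:66698562, 3.67 kb before the first listed start, ranked 164 and 392 in shHNRNPU#2, 639 and 423 in shHNRNPU#1 and 914 and 1008 in shLUC (1.92 ± 0.80, adjusted p = 0.508). The second, at chr15:66774521, ranked 2101 and 1593 against 9255 and 10367, with 5194 and 2835 in shHNRNPU#1 (2.42 ± 0.74, adjusted p = 0.168). At SMAD3 the ranks were 8125 and 17063 against 49999 and 45724 (adjusted p = 0.347), and at BMPR1A 18825 and 19322 against no summit (adjusted p = 0.685). In shHNRNPU#1 the SMAD3 site ranked 22827 and 31530. The BMPR1A site ranked 75005 in the first shHNRNPU#1 repeat and had no summit in the second. None of the 4 sites passed the adjusted threshold. The summed counts were 50 and 42 in shHNRNPU#2 and 41 and 42 in shLUC, which touch.

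In the WNT list, 1 of 24 genes had a higher site and 2 had a lower one. APC, the scaffold of the destruction complex, ranked 13592 and 10698 against 69859 and 30434, and ZNRF3, a ligase that removes WNT receptors, ranked 20412 and 40048 against 8330 and 6407. In shHNRNPU#1 the APC site ranked 65316 and 21701 and the ZNRF3 site 15278 and 11264. Within 1000 bp of the ZNRF3 site the shHNRNPU#2 ranks were 3816 and 6246. The list's summed counts were 68 and 67 in shHNRNPU#2 and 61 and 59 in shLUC, and the sums over all protein-coding genes were ordered alike, at 14892 and 14935 against 14788 and 14713. WNT3 had 2 and 1 strong summits against 0 and 0, while the receptor LGR4 had 4 and 4 against 6 and 5. No gene of the FGF and ERK list (19 with a site) had a consistent site.

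Enzymes that set or remove the marks themselves gave 1 higher and 2 lower genes of 13. CREBBP, a writer of H3K27ac, held 2 higher sites, of which the stronger ranked 3179 and 2512 in shHNRNPU#2 and 10748 and 14502 in shLUC (2.14 ± 0.72, adjusted p = 0.277). KDM1A, which removes H3K4me1, ranked 18069 and 10487 against 3470 and 5014 (-1.72 ± 0.70, adjusted p = 0.484). Its paralog KDM1B ranked 31031 and 40412 against 7520 and 8490 (-2.15 ± 0.67, adjusted p = 0.186). In the nuclear architecture list, NUMA1 had a higher site and LMNA, which encodes lamin A and C, a lower one. MATR3, a nuclear matrix protein, had 2 and 2 strong summits against 3 and 3. No gene of the lists for splicing factors and hnRNPs (14 with a site), p53 and stress response (7) or markers of other cell types (13) had a consistent site. RBFOX3, a marker of neurons, had 9 and 9 strong summits against 12 and 10. The mesendoderm and neural lists each had 1 lower gene, MSX2 and MEIS2, and no higher gene. The lists are short, and 1 or 2 genes make up each of these shares except that of the Nodal and BMP list.

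H3K27ac libraries of the same conditions took no part in the choice of the consistent sites. These lists were shorter, with 62449 to 90914 summits, and their shLUC samples carried the same exchange of titles and names. No H3K27ac summit lay within 250 bp in any of the 4 libraries at 32.4% of the higher sites, 36.5% of the lower sites and 38.7% of all sites. In each single library, 33.6% to 49.8% of the sites of either set had such a summit, so most had none. The median difference in H3K27ac rank level was 0 at both sets (exact permutation p = 1). On the mean, the higher sites had H3K27ac rank levels of 1.63 and 1.69 in shHNRNPU#2 and 1.37 and 1.36 in shLUC, a difference of 0.30 (exact two-sided permutation p = 0.33, the smallest possible with 2 against 2). At the lower sites the mean levels were 0.99 and 1.06 against 0.98 and 1.15, a difference of -0.04 (p = 1 in the exact test). Over all sites the mean difference was 0.13, so part of the gap at the higher sites was shared by all sites. Both shHNRNPU#2 H3K27ac libraries lay above both shLUC libraries at 91 higher sites (15.0%, beside 10.2% of all sites) and below them at 22 (3.62%, beside 6.54%). At the lower sites the counts were 44 (7.36%) and 63 (10.5%). The use of the mean was chosen after the median was seen.

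**Figure D5:**
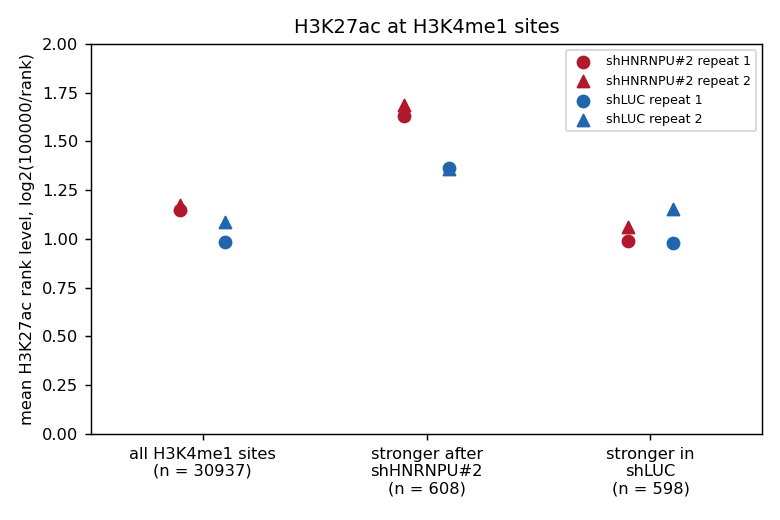
Mean H3K27ac rank level, log2(100000/rank) with 0 for no summit, at all H3K4me1 sites and at the consistent sites, for each of the 4 H3K27ac libraries. Both shHNRNPU#2 points are above both shLUC points at all sites and at the 608 higher sites, and the groups overlap at the 598 lower sites.

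HNRNPU binding in untransfected cells was read from summits shared by the 2 HNRNPU libraries. Such a summit lay within 500 bp of 135 of the 608 higher sites (22.2%), 106 of the 598 lower sites (17.7%) and 6023 of all sites (19.5%). With the intervals deposited for the series as a whole, the shares were 40.5%, 42.1% and 41.4%, and the order was turned. Neither set stood apart from all sites in the same direction under both definitions. As examples, COLGALT1, POLR2F, LOC124900165, SAXO5 and PODXL had an HNRNPU summit within 500 bp, while WASL, TMEM123, XYLT1 and ARID5B did not. The other loci above fell on both sides and are not tallied here.

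The shHNRNPU#1 libraries, which took no part in the choice of sites, were also read at the consistent sites. Their median ranks were 10424 and 11359 at the higher sites, 18902 and 18004 at the lower sites and 17228 and 17125 at all sites. The sites were chosen for opposite ranks in the shHNRNPU#2 and shLUC libraries, so a library outside the choice tends to fall between them, and no direction is read from these medians.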

How the data were processed

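CUT&Tag summit lists of H1 cells were analysed. Per the labels and processing notes, the authors used cutadapt, Bowtie2, SAMtools, MACS2 and deepTools with hg38, and versions and control libraries are not given in the sources used here. The score column of each deposited list, −log10 of a p-value or q-value judging by the MACS layout, was used only to rank summits within a library. The deposited intervals for the series as a whole had a score of 0 throughout and gave positions only. The study's listed paper does not describe these libraries. The members, lists and rules were chosen with earlier results of these data known.

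Genes and promoter windows came from RefSeq (GRCh38.p14). Sites were fitted with limma 3.58.1 (trend, Benjamini-Hochberg adjustment over all sites) on log2(100000/rank), genes and bins on log2(count + 1) with at least 3 strong summits. The named sites were the 10 consistent sites per direction with the largest gap in or within 5 kb of a protein-coding gene, 1 per gene. The named genes were the 5 per direction with the largest difference in strong summits among non-overlapping genes. The strongest 5 sites and list members with a consistent site were also named. Alternatives changed the list length, match distance, rank cap, antibody assignment, filters and libraries. Depth, and with it counting error, is unknown.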

Additional observations from a re-analysis of the deposited data

How the results depend on the processing

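With the shLUC lists taken by title, 13668 sites were called higher and 9814 lower by limma, 10664 and 7693 were consistent, 372 genes had more and 466 fewer strong summits, 133 bins had more and 127 fewer, and the gene-end difference was -16.6 percentage points, the reverse of the value by list name. Sites called higher and lower numbered 20 and 18 with the 10000 strongest summits, 81 and 70 with 40000, 76 and 59 with matches at 100 bp, 13 and 13 at 500 bp, 12 and 13 at 1000 bp, 15 and 22 with a rank cap of 50000, 3 and 4 for sites in at least 2 lists, 4 and 8 for sites ranked in all 4 lists, 1 and 0 on log2 scores, and 12 and 14 with the shHNRNPU#1 libraries in the fit. Leaving out 1 library gave 0 to 1 higher and 0 to 2 lower. Consistent sites numbered 356 and 334 with 10000 and 1042 and 998 with 40000 summits, and 1790 to 2848 higher and 1572 to 2990 lower without 1 library, where fewer libraries must separate. Genes called with more summits numbered 97 with 40000 summits, and those with fewer numbered 22 with 10000. With a minimum of 1 summit 339 and 332 were called, without 1 library 166 to 241 and 182 to 222, and 0 and 0 among genes whose repeats differ. Without a shHNRNPU#2 library 0 to 4 bins had more and 0 to 1 fewer, and the calls came from leaving out the second. The HNRNPU share at higher and lower sites was 26.4% and 22.2% with 10000 summits and 40.5% and 42.1% with the series-wide intervals. Replicate numbers did not pair the libraries (r = -0.01 between deviations of same-numbered libraries). With the replicate number as a block, 40 sites were called in each direction, and 0 and 0 genes. Sites ranked in all 4 lists, the 1000 bp match, the tied genes, the count over any listed start and the mean H3K27ac level were chosen after seeing the data. The causes of these changes were not tested. Unknown read depth limits every comparison of weak summits.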

Other observations

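A single cluster of 3 consistent sites of the same direction was found when sites within 50 kb were chained. It lay at BCL9L, a coactivator of WNT signalling, over 46.8 kb of chromosome 11, and all 3 sites ranked higher after shHNRNPU#2. The span held 8 sites in all, with a median difference of 1.02. The median ranks of the 3 consistent sites were 6730 and 10400 in shHNRNPU#2, 5445 and 10953 in shHNRNPU#1 and 37324 and 21396 in shLUC. The order of shHNRNPU#2 and shLUC there follows from the criterion that chose the sites. No direction is read from the shHNRNPU#1 ranks. The cluster was found by searching all sites, and it has no test of its own.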
